A study of Mus musculus with 10 samples.

Results

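Immediate-early response genes are a class whose transcripts appear within minutes of a stimulus, without new protein synthesis. The list used here holds 36 genes, and not all fit this strictly, Jund being largely constitutive. The 36 genes were followed in islets from the pancreas of 10 female mice, labelled C57 on a 129 background and killed at 5 weeks of age. Of these, 5 were Men1 heterozygotes and 5 were wildtype littermates. About 100 islets were pooled per mouse, so each sample is a separate animal. Members were all probe sets whose annotated symbol is in the list, 66 of 45037 non-control probe sets on the array. A probe set counted as measured when its log2 value exceeded 4 on at least 5 of the 10 arrays, which left 42 member probe sets for 32 of the 36 genes, against 10538 genes in all. The other 4 genes, Fosl1, Nr4a3, Dusp4 and Dusp10, lay between 2.15 and 5.04 on every array and were not tested. All levels are deposited log2 values, differences are heterozygous minus wildtype, levels carry SDs (n = 5 mice per genotype), and a standard error (SE) follows each difference. Where a gene had several measured probe sets, the brightest is given.

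Immediate-early genes couple signals at the membrane to transcription. Calcium entry, cyclic AMP and growth factors activate kinases that phosphorylate CREB and the serum response factor complex, and these bind promoters of FOS, JUN, EGR and NR4A genes and switch them on briefly. The first wave includes its own brakes, namely dual-specificity phosphatases that inactivate MAP kinases and TTP-family proteins that degrade short-lived mRNAs. In beta cells, glucose, depolarisation and incretin hormones are known inducers, and tissue dissociation is a known inducer in many cell types. Menin, the product of Men1, is known to bind the AP-1 factor JunD.

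The labels give the heterozygous group by genotype alone, and how the Men1 allele was altered is not stated in the sources used here. Men1 measured 6.89 ± 0.39 in wildtype mice and 6.42 ± 0.30 in heterozygous mice (difference -0.47, SE 0.20, limma adjusted p = 0.9999). Where its probe set lies relative to the altered part is unknown, so this is no check of the labels. Endocrine markers were abundant, with Ins2 at 16.28 and Gcg at 16.40 in wildtype islets, and 8 of 10 listed beta cell markers were measured. Acinar markers were as bright, with Cela2a at 16.82 and Cpa1 at 16.58 in wildtype islets, so the samples also held exocrine RNA. Signals this bright tend to understate a change. Array medians ran from 3.28 to 3.40 and the highest value on any array was 17.58. All 10 listed stromal cell markers had a lower mean in heterozygous islets, and their average per mouse ran from 9.81 to 10.51 in wildtype and from 8.91 to 10.50 in heterozygous islets. Lymphocyte markers, of which 5 of 14 were measured, averaged 7.41 in heterozygous mouse 2 and 6.87 in heterozygous mouse 5, against 4.45 to 5.73 in the other mice. In such bulk samples fewer cells of a type and less RNA per cell cannot be told apart.

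Many of these genes are known to be driven by serum response factor and CREB, so sequence upstream of the start site is shown for the members with a serum response factor site (CArG box) or a full cyclic AMP response element (CRE, TGACGTCA) that had the smallest genotype p. RefSeq promoter windows of build GRCm38.p6, from 250 bases before to 50 bases after a start site, were matched for 26 of the 36 genes. For Dusp1 and Dusp5, with 1 listed start site each, the 250 upstream bases are given, and for Maff and Egr2, with several start sites, 30 bases around the motif. Capitals mark the CRE or the CArG box, and all sequences run 5′ to 3′ on the gene's strand.
Dusp1, chr17:26508473-26508722, minus strand: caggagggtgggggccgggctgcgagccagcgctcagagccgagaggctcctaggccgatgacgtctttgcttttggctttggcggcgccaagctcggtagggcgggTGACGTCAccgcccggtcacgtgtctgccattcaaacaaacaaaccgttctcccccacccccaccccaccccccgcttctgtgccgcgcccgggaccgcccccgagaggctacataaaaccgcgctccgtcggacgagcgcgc
Dusp5, chr19:53528895-53529144, plus strand: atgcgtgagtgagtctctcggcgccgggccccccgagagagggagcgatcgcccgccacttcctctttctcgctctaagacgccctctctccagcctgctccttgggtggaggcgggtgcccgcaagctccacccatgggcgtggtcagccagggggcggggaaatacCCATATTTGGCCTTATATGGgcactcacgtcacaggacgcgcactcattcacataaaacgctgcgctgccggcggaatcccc
Maff, chr15:79347480-79347509, plus strand: ggctggggcggTGACGTCActgcatgactg
Egr2, chr10:67537484-67537513, plus strand: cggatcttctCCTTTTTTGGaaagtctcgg
Egr2, chr10:67537787-67537816, plus strand: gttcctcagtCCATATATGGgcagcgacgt
The CRE of Dusp1 begins 143 bases before its start site, and the CArG boxes of Dusp5, a pair that adjoin without a gap, begin 82 and 72 bases before its start site.

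Searched on both strands, a CArG box lay in windows of 3 of the 26 matched genes (Dusp5, Egr2 and Zfp36) and a full CRE in those of 3 others (Btg2, Dusp1 and Maff). Over the 36 windows of these genes the shares were 16.7% and 8.33%, against 1.63% and 1.79% of all 32851 windows. The CRE core TGACG, which is part of the full CRE, lay in windows of 17 of the 26 genes, among them Fos, Fosb, Junb, Nr4a1, Nr4a2, Per1, Npas4 and Rgs2. It was found in 66.7% of member windows and 20.8% of all windows. The AP-1 site TGANTCA lay in windows of 2 genes (5.56% of member windows, 7.81% of all) and the EGR site GCGTGGGCG in 1 (2.78% and 0.612%). Egr2, Csrnp1, Maff and Per1 contribute several windows each, some of them overlapping. Most of the 6 member windows with a CArG box were of Egr2. Its box CCATATATGG, shown above, was counted in several overlapping windows, so the 16.7% counts it more than once. A match is a run of letters and not a shown binding site.

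The comparison of heterozygous with wildtype islets asked whether Men1 heterozygosity goes with another level of these genes. None of the 32 measured genes passed the test (limma, Benjamini-Hochberg over 18567 probe sets, adjusted p = 0.9999 for each). Of all probe sets 0% passed it. At an unadjusted limma p under 0.05 there were 2 members, Dusp1 and Dusp6, both lower in heterozygous islets, beside 4.09% of all probe sets in either direction and 1.52% lower. The wildtype and heterozygous ranges overlapped for every one of the 32, where 0.700% of all probe sets did not overlap. A negative difference was seen in 21 members and a positive one in 11, with a median of -0.10, whereas 43.6% of all probe sets had a negative difference and their median was 0.02. Without heterozygous mouse 5 the count was 15 of 32 (49.4% of all probe sets) and the median 0.02. Without wildtype mouse 1 it was 26 of 32 (47.0% of all probe sets) and -0.21. Member differences ranged from -0.39 for Fosb to 0.44 for Myc. The median 95% interval reached 0.52 to either side, so differences of that size in a typical member were not resolved with 5 mice per genotype.

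**Figure D1:**
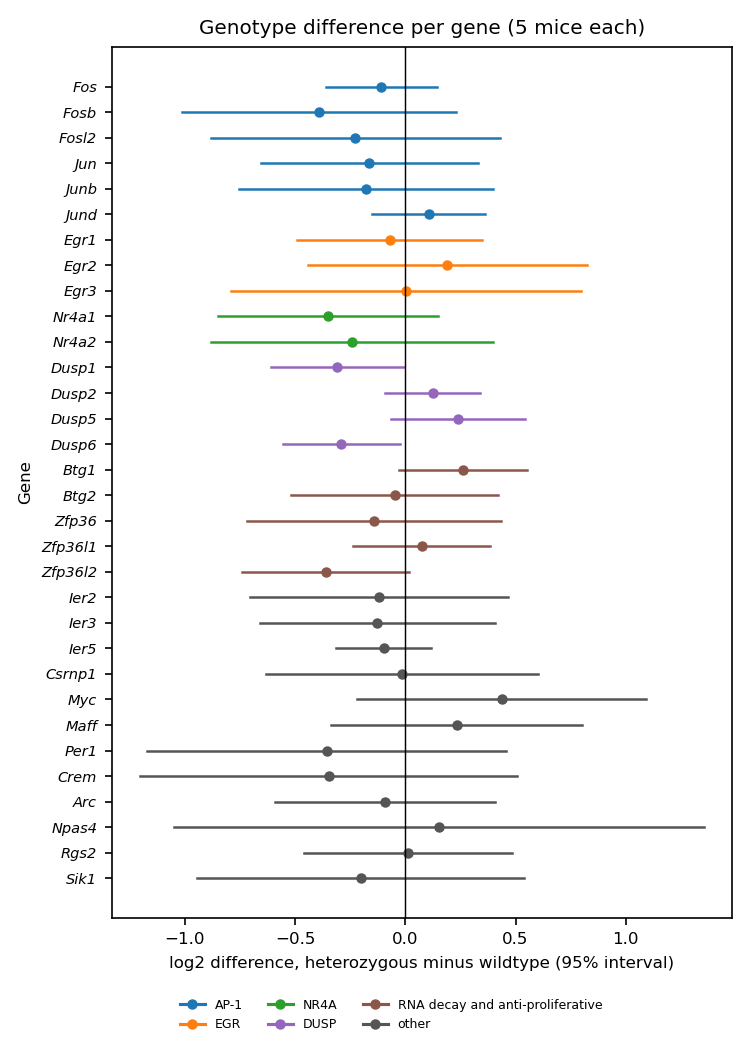
Log2 difference (heterozygous minus wildtype, x axis) with its 95% interval from limma for each of the 32 measured genes (y axis), coloured by family; 5 mice per genotype. Only the intervals of Dusp1 and Dusp6 lie below 0, and no gene passed after adjustment over all probe sets.

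The AP-1 genes encode FOS and JUN proteins that pair through leucine zippers and bind DNA as dimers. Of 7 listed genes 6 were measured, and 5 had a lower and 1 a higher mean in heterozygous islets. Fos stood at 15.18, 15.51, 15.49, 15.49 and 15.45 in wildtype mice 1 to 5 and at 15.40, 15.42, 15.43, 15.34 and 14.98 in heterozygous mice 1 to 5. Its level was alike in 8 of the mice, with wildtype mouse 1 and heterozygous mouse 5 below them. The Fos difference was -0.11 (SE 0.114, exact permutation p = 0.397, limma adjusted p = 0.9999). It was -0.03 without heterozygous mouse 5 and -0.17 without wildtype mouse 1, neither of them called. In the latter case the genotypes did not overlap, as was so for 1.23% of all probe sets with that mouse left out. Fos was among the brightest signals on the arrays, and bright array signals tend to understate a change.

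Fosb, a FOS protein induced by strong or repeated stimulation, had wildtype values of 9.80, 10.24, 10.99, 10.24 and 10.12. Its heterozygous values were 10.43, 10.27, 9.99, 9.73 and 9.01. The groups overlapped widely, and the lowest and highest mice differed 3.97-fold, from heterozygous mouse 5 to wildtype mouse 3. The Fosb difference of -0.39 (SE 0.282, exact permutation p = 0.286) was the most negative of the members over all 10 mice. It was -0.21 without wildtype mouse 3 and -0.17 without heterozygous mouse 5, when other members, Zfp36l2 among them (-0.42 and -0.32), were more negative. Jun, the main partner of FOS proteins, was measured at 11.25, 11.86, 11.96, 11.74 and 11.48 in wildtype and 11.62, 12.02, 11.64, 11.46 and 10.74 in heterozygous islets. Again heterozygous mouse 5 and wildtype mouse 1 were lowest, and the highest value was also heterozygous. The Jun difference was -0.16 (SE 0.223), and it stood at -0.29 without heterozygous mouse 2 and 0.03 without heterozygous mouse 5.

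Among the remaining AP-1 genes, Fosl2 differed by -0.23 (SE 0.298), with wildtype mouse 1 at 6.65 and the other wildtype mice from 7.87 to 8.26. Junb, which can restrain JUN, differed by -0.18 (SE 0.261). Jund, the member whose protein menin binds, averaged 10.75 ± 0.11 in wildtype mice and 10.85 ± 0.22 in heterozygous mice (0.11, SE 0.116). Its 95% interval was -0.15 to 0.36, which in linear terms is 90.2% to 129% of the wildtype level. Jund is largely constitutive. Its spread between mice was at the 24.3th percentile of all probe sets, below that of Fosb at the 91.1th percentile. The spread of Fos was as low, at the 22.8th percentile, so a low spread did not set Jund apart.

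The EGR genes encode zinc finger factors that follow MAP kinase activity, and all 3 were measured. Egr1, known in beta cells as a glucose-induced factor, stood at 13.39, 14.02, 14.06, 13.91 and 13.75 in wildtype and 13.87, 14.08, 14.00, 13.68 and 13.15 in heterozygous islets. The highest and lowest values were both heterozygous, and the difference was -0.07 (SE 0.19, exact permutation p = 0.714). It was 0.08 without heterozygous mouse 5 and -0.18 without wildtype mouse 1.

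Egr2, a related factor with the CArG boxes shown above, was measured at 9.39, 10.37, 10.59, 10.49 and 10.83 in wildtype and 10.68, 11.11, 10.57, 10.44 and 9.84 in heterozygous islets. Wildtype mouse 1 stood more than a log2 unit below most mice. The Egr2 difference was 0.19 (SE 0.286), and it was -0.05 without wildtype mouse 1 and 0.36 without heterozygous mouse 5. Egr3, a target of calcineurin signalling, had wildtype values of 6.13, 7.52, 8.48, 7.63 and 8.08 and heterozygous values of 7.39, 7.98, 7.51, 7.52 and 7.46. Wildtype mice spanned both ends, whereas the heterozygous values lay close together. The Egr3 difference was 0.0028 (SE 0.36), and it was -0.36 without wildtype mouse 1 and 0.23 without wildtype mouse 3, neither called.

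The NR4A genes encode orphan nuclear receptors that respond to cyclic AMP and calcium, and 2 of 3 were measured. Nr4a1 stood at 10.50, 10.99, 11.73, 11.31 and 10.72 in wildtype mice and at 10.82, 11.04, 10.80, 10.52 and 10.32 in heterozygous islets. The 2 highest mice were wildtype and the lowest was heterozygous, with overlap between. The Nr4a1 difference was -0.35 (SE 0.226, exact permutation p = 0.222, limma adjusted p = 0.9999), or 78.5% of the wildtype level (95% interval 55.6% to 111%). It was -0.18 without wildtype mouse 3 and -0.49 without wildtype mouse 1.

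Nr4a2 had wildtype values of 9.93, 10.27, 10.83, 10.90 and 11.17 and heterozygous values of 10.51, 11.09, 10.59, 9.82 and 9.88. The lowest 3 mice were heterozygous mice 4 and 5 and wildtype mouse 1. The Nr4a2 difference was -0.24 (SE 0.29), and leaving out 1 mouse took it from -0.42 (heterozygous mouse 2) to -0.10 (heterozygous mouse 4). It had 3 further measured probe sets with differences of -0.24, 0.07 and 0.09, so the sign of its difference depended on the probe set.

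The dual-specificity phosphatases dephosphorylate MAP kinases. Dusp1 acts in the nucleus, mainly on p38 and JNK, and Dusp6 in the cytoplasm on ERK. Of 6 listed genes 4 were measured, of which Dusp1 and Dusp6 were lower and Dusp2 and Dusp5 higher in the heterozygous mean. Dusp1, whose promoter carries the CRE shown above, measured 13.20, 13.59, 13.77, 13.81 and 13.43 in wildtype and 13.36, 13.28, 13.23, 13.42 and 12.96 in heterozygous islets. The 4 highest values were wildtype, and wildtype mouse 1 lay among the heterozygous mice. The Dusp1 difference of -0.31 (SE 0.137), or 80.7% of the wildtype level (95% interval 65.5% to 99.5%), had an unadjusted limma p of 0.0458 and an exact permutation p of 0.0714. Without wildtype mouse 1 the Dusp1 difference was -0.40 and the genotypes did not overlap, beside 1.23% of all probe sets. It was -0.24 without heterozygous mouse 5 and -0.18 with the stromal marker average as a covariate, and none of these was called.

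Dusp6, a negative regulator that reads out ERK activity, stood at 6.37, 6.71, 6.81, 6.39 and 6.51 in wildtype and 6.42, 6.44, 6.28, 6.05 and 6.15 in heterozygous islets. The 3 lowest mice were heterozygous and the 3 highest wildtype. The Dusp6 difference was -0.29 (SE 0.121, unadjusted limma p = 0.035, exact permutation p = 0.0476, limma adjusted p = 0.9999), or 81.8% of the wildtype level (95% interval 68.0% to 98.3%). It was negative under all 22 alternatives tried for it, from -0.38 to -0.22. The sign likewise held throughout for 11 of the 18 genes so tried, and some alternatives leave the difference itself unchanged. The smallest exact permutation p that 5 against 5 mice allow is 0.00794.

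Dusp5, a nuclear ERK phosphatase with a pair of CArG boxes, went the other way at 0.24 (SE 0.138, exact permutation p = 0.0556). Its wildtype mouse 1 stood at 5.03, with the other wildtype mice from 5.63 to 5.69 and the heterozygous mice from 5.65 to 5.93. Dusp2, a phosphatase of activated lymphocytes, was dim at 4.63 ± 0.15 and 4.76 ± 0.10 (0.12, SE 0.0978).

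A group of 5 genes acts on mRNA decay and cell division, and all were measured, 3 with a lower and 2 with a higher heterozygous mean. Zfp36l2, an mRNA decay factor, stood at 9.02, 9.59, 9.14, 9.53 and 9.52 in wildtype and 8.71, 8.99, 8.92, 9.53 and 8.85 in heterozygous islets. In 4 of 5 heterozygous mice it lay below every wildtype mouse, and heterozygous mouse 4 matched the upper wildtype mice. The Zfp36l2 difference was -0.36 (SE 0.171, exact permutation p = 0.0635). Heterozygous mouse 4 was also the heterozygous mouse with the highest average of stromal markers, 10.50, and with that average as a covariate the difference was -0.06. All 10 stromal markers had a lower heterozygous mean, so stromal content and genotype cannot be told apart here, and the cause was not tested. Without heterozygous mouse 4 the Zfp36l2 difference was -0.49, not called, and the genotypes did not overlap, beside 1.80% of all probe sets.

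Btg1, an anti-proliferative protein that binds mRNA deadenylases, measured 11.92, 12.06, 12.35, 11.86 and 11.89 in wildtype and 12.35, 12.09, 12.02, 12.37 and 12.54 in heterozygous islets. Of the 4 highest values 3 were heterozygous, and the difference was 0.26 (SE 0.132, exact permutation p = 0.0794). It was positive under all 22 alternatives, and the sign held throughout for 11 of the 18 genes so tried. Its 2 other measured probe sets differed by 0.14 and 0.26. Zfp36, the founding member of its family, differed by -0.14 (SE 0.261), Btg2 by -0.05 (SE 0.213) and Zfp36l1 by 0.07 (SE 0.141).

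The other 12 listed genes were all measured, 8 with a lower and 4 with a higher heterozygous mean. Myc, a growth-promoting transcription factor, stood at 5.62, 6.79, 6.32, 6.22 and 5.76 in wildtype and 6.60, 6.92, 7.29, 6.34 and 5.75 in heterozygous islets. The 2 highest mice were heterozygous, but heterozygous mouse 5 was level with the lowest wildtype mice. The Myc difference was 0.44 (SE 0.297, exact permutation p = 0.222), the most positive of the members over all 10 mice. It was 0.26 without heterozygous mouse 3, when Btg1 was at 0.32, and 0.65 without heterozygous mouse 5. Ier5, a heat- and growth-factor-induced gene, had wildtype values of 8.66, 9.03, 9.00, 8.84 and 8.79 and heterozygous values of 8.72, 8.82, 8.61, 8.81 and 8.87. These lay within a narrow range with the groups interleaved (-0.10, SE 0.0985).

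Npas4, a transcription factor induced by calcium entry in neurons and beta cells, varied most between mice. Its wildtype values were 6.27, 6.41, 8.56, 6.91 and 7.47, and its heterozygous values 7.20, 7.85, 8.63, 6.90 and 5.81. Both genotypes held 1 mouse above 8.5, and the range over the 10 mice was 7.07-fold. The Npas4 difference was 0.15 (SE 0.545), and its sign turned without heterozygous mouse 3 (-0.19), wildtype mouse 1 (-0.06) or wildtype mouse 2 (-0.03), while without heterozygous mouse 5 it was 0.52.

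Per1, a clock gene that also responds to cyclic AMP and glucocorticoids, measured 6.37, 6.40, 8.16, 7.76 and 7.94 in wildtype and 6.84, 7.60, 6.82, 6.78 and 6.80 in heterozygous islets. Wildtype mice divided into low and high values, with all 5 heterozygous mice between them. The Per1 difference was -0.36 (SE 0.369), and leaving out 1 mouse took it from -0.60 (wildtype mouse 1) to -0.15 (wildtype mouse 3). Sik1, a kinase that restrains CREB coactivators, had wildtype values of 6.22, 5.22, 7.14, 6.58 and 6.39 and heterozygous values of 6.65, 6.40, 5.35, 6.01 and 6.14 (-0.20, SE 0.336). Its lowest 2 mice were 1 of each genotype, and without wildtype mouse 2 or 3 the difference was -0.47 or 0.0058.

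Crem, whose short inducible products repress CRE-driven transcription, stood at 7.46, 7.39, 7.42, 7.73 and 8.08 in wildtype and 7.73, 6.71, 5.99, 7.47 and 8.45 in heterozygous islets. It was highest in heterozygous mouse 5, the mouse in which Fos was lowest, and lowest in heterozygous mouse 3. The Crem difference was -0.35 (SE 0.388), and its other measured probe set differed by 0.01. The value rested on single mice, at -0.03 without heterozygous mouse 3 and -0.64 without heterozygous mouse 5. The files do not tell which Crem isoforms these probe sets detect. The remaining genes differed by -0.13 (Ier3), -0.12 (Ier2), -0.09 (Arc), -0.02 (Csrnp1), 0.01 (Rgs2) and 0.23 (Maff), each less than its SE.

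The members varied between mice more than most transcripts, and largely in the same mice. The SD between mice within genotype, taken from the limma residuals, had a median of 0.41 over members against 0.25 over all probe sets. For 21 of 32 members it lay in the highest 25.0% of all probe sets. Wildtype mouse 1 was the lowest of the 10 for 10 of 32 members, where it was lowest for 11.6% of all probe sets. Heterozygous mouse 5 was lowest for another 10, against 9.54% of all probe sets. Wildtype mouse 3 was highest for 10 members, against 13.6%, and heterozygous mouse 2 for 6, against 9.90%. Wildtype mouse 1 lay below the mean of the 10 arrays for 29 of 32 members (64.8% of all probe sets), and heterozygous mouse 5 for 27 (38.8%).

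**Figure D2:**
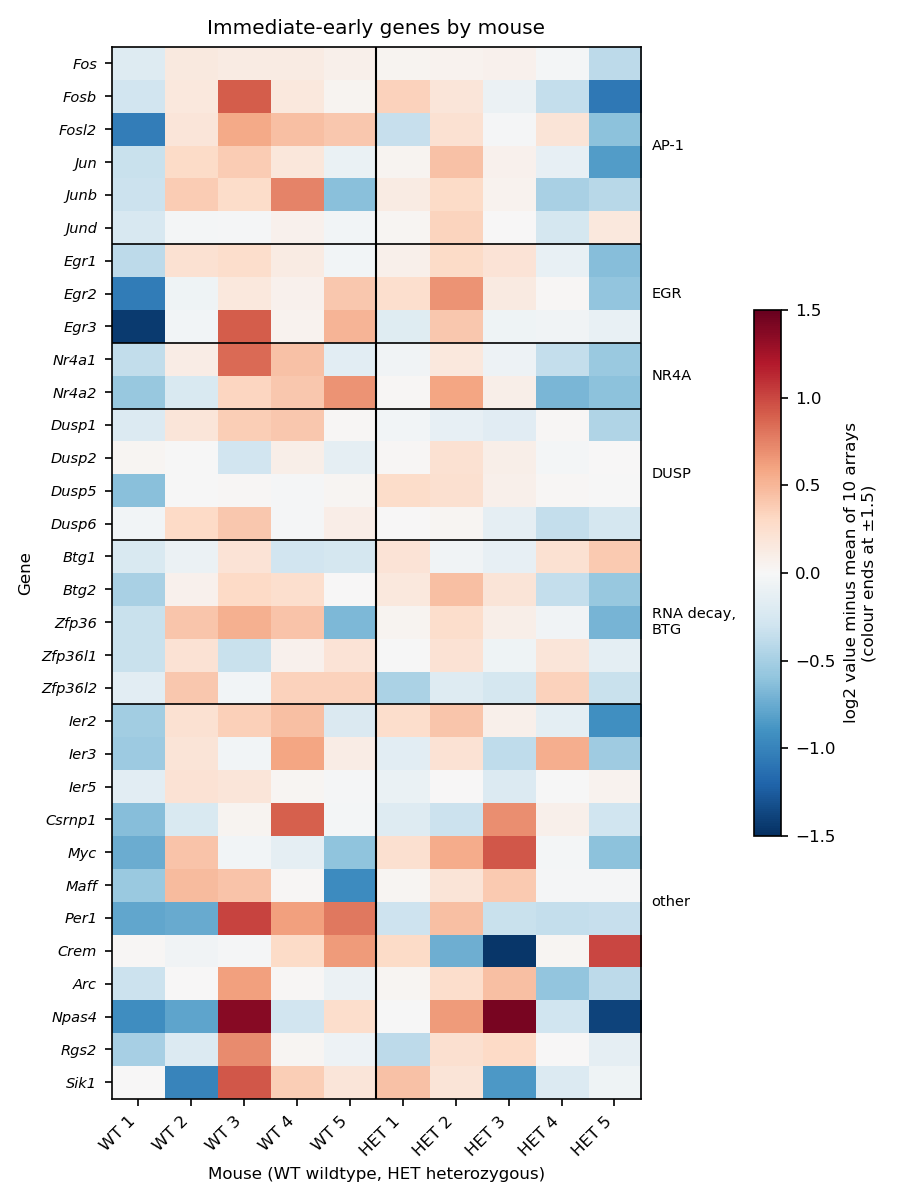
Log2 value minus the mean of the 10 arrays (colour) for the 32 measured genes (rows, by family) in each mouse (columns; WT wildtype, HET heterozygous, 5 each). The columns of wildtype mouse 1 and heterozygous mouse 5 are blue for most genes, 29 and 27 of 32, while Crem and Btg1 are above their mean in heterozygous mouse 5.

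An activation score was taken per mouse as the mean over the 32 genes of the log2 value minus that gene's mean over the 10 arrays. It stood at -0.45, 0.04, 0.36, 0.22 and 0.02 in wildtype mice 1 to 5 and at 0.02, 0.21, 0.04, -0.10 and -0.36 in heterozygous mice 1 to 5. Wildtype mouse 1 and heterozygous mouse 5 were the lowest mice of their genotypes, and the remaining 8 mice interleaved. The genotype means were 0.04 ± 0.30 and -0.04 ± 0.21, a difference of -0.08, smaller than the spread within either genotype. Without wildtype mouse 1 it was -0.20, and without heterozygous mouse 5 or wildtype mouse 3 it was 0.0044 or 0.0048. The score spanned 0.80 log2 units over the mice, or 1.75-fold. The score is a description and carries no test, since the members were chosen with earlier results known.

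The families followed this order of mice to different degrees. The AP-1 score was lowest in heterozygous mouse 5 (-0.53) and wildtype mouse 1 (-0.40) and highest in wildtype mouse 3 (0.37), with a genotype difference of -0.16. The EGR score had the widest range, 1.42 log2 units, from -0.96 in wildtype mouse 1 to 0.46 in heterozygous mouse 2, and a difference of 0.04. The NR4A score was low in heterozygous mice 4 (-0.52) and 5 (-0.59) and wildtype mouse 1 (-0.47). It had the most negative difference, -0.29, from 2 genes, and the sign of the Nr4a2 difference depended on the probe set. The DUSP score spanned 0.33, the narrowest, with a difference of -0.06 that averages members of opposite sign. Without wildtype mouse 1 and heterozygous mouse 5, a choice made after the values were seen, the differences were -0.17 for AP-1, -0.08 for EGR, -0.34 for NR4A and -0.08 for DUSP.

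**Figure D3:**
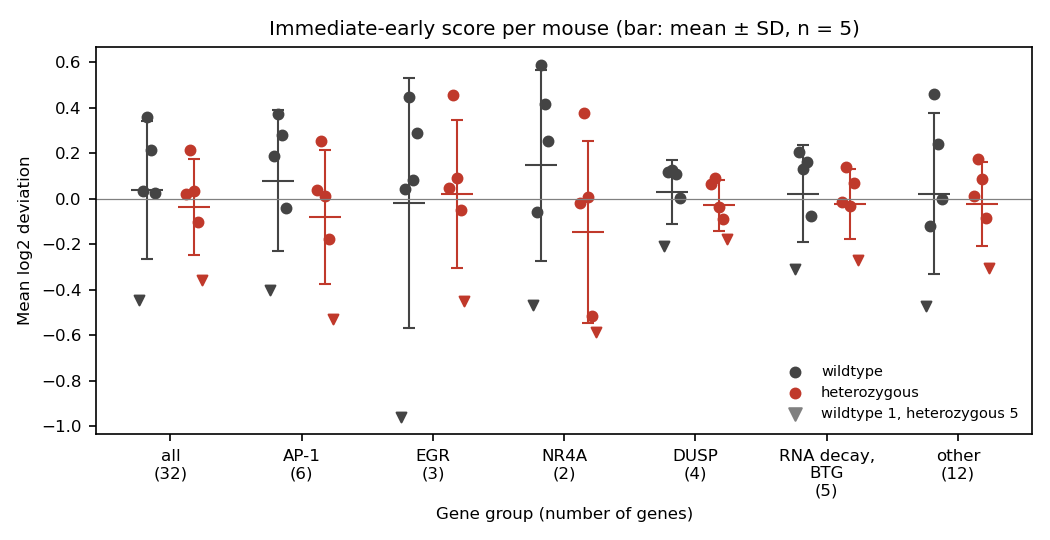
Mean log2 deviation per mouse (y axis) over all 32 measured genes and by family (x axis, number of genes in brackets); dark points are wildtype and red points heterozygous mice, and bars are mean ± SD (n = 5). Triangles mark wildtype mouse 1 and heterozygous mouse 5, the lowest mouse of its genotype for the whole score (-0.45 and -0.36).

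How far single genes followed Fos was measured across the 10 mice. Of the 31 other members 28 had a positive correlation with Fos, beside 43.4% of all probe sets, and the median r was 0.57 against -0.08. A permutation test (100000 permutations) gave an unadjusted p under 0.05 with positive r for 13 of 31, beside 3.78% of all probe sets, and for no member with negative r, beside 5.35%. Adjusted over 18566 probe sets 0 members passed, the lowest adjusted p being 0.524. The closest was Egr1 (r = 0.94, permutation p = 0.00089, Spearman's rho = 0.73, permutation p = 0.0202), followed by Jun (r = 0.91, rho = 0.76, permutation p = 0.00094 and 0.0147). Ier2 (r = 0.90), Fosb (0.84), Btg2 (0.82), Dusp1 (0.80) and Fosl2 (0.79) came next.

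Much of this rested on the mice with the lowest Fos. Without wildtype mouse 1 and heterozygous mouse 5, the 2 mice farthest from the median Fos value, r was 0.57 for Egr1 and 0.54 for Jun over 8 mice (exact permutation p = 0.143 and 0.169). The median r over members was then 0.30 against -0.0017 over all probe sets, with 23 of 31 positive beside 49.8%. Only Dusp6 (r = 0.83) and Nr4a1 (r = 0.71) had an unadjusted exact permutation p under 0.05, 0.0116 and 0.0487, beside 1.04% of all probe sets with positive r. Centring each gene within genotype left the median r at 0.60, with 13 of 31 under 0.05 by an exact permutation within genotype, beside 4.89% of all probe sets with positive r. Correlations within a single genotype of 5 mice were not computed.

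Some members did not follow Fos. Jund had r = 0.02, Sik1 0.04, Dusp2 -0.14, Crem -0.42 and Btg1 -0.44 with Fos, none with an unadjusted permutation p under 0.05. As a description, the median r between pairs of genes was 0.77 within EGR (3 pairs), 0.62 between AP-1 and EGR (18 pairs) and 0.67 between AP-1 and NR4A (12 pairs). It was 0.08 within DUSP (6 pairs) and 0.05 among the mRNA decay and BTG genes (10 pairs). All pairs share the same 10 arrays.

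**Figure D4:**
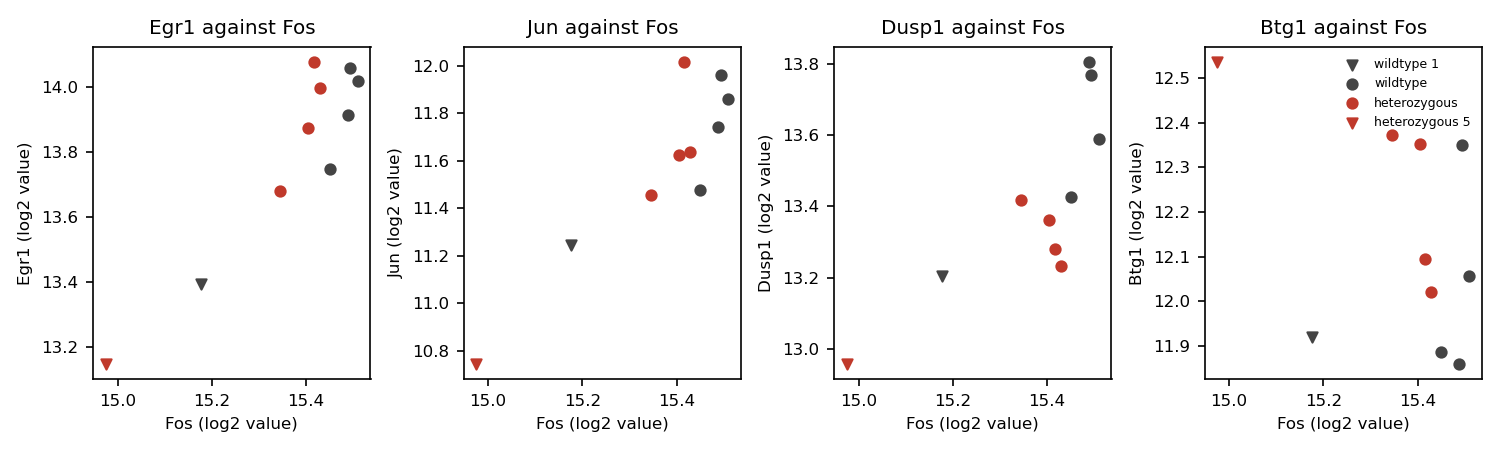
Log2 value of Egr1, Jun, Dusp1 and Btg1 (y axes) against that of Fos (x axis) in each of the 10 mice; dark points are wildtype, red points heterozygous, and triangles mark wildtype mouse 1 and heterozygous mouse 5. Egr1 (r = 0.94) and Jun (r = 0.91) lie low in the 2 mice with low Fos, whereas Btg1 (r = -0.44) is highest in heterozygous mouse 5.

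Other measures of the low mice were set beside the score. Wildtype mouse 1 had average stromal markers of 9.94 and lymphocyte markers of 4.83, and heterozygous mouse 5 had 9.55 and 6.87. Lymphocyte markers were higher still in heterozygous mouse 2 (7.41), whose score of 0.21 was the highest of its genotype. Beta cell markers averaged 12.69 in wildtype mouse 1 and 13.01 in heterozygous mouse 5, against 12.27 to 13.04 in the other mice. Acinar markers averaged 16.37 and 16.26, against 16.38 to 16.52 in the other mice. Both low mice had the lowest acinar average of their genotype. Wildtype mouse 3, with the highest score of all mice (0.36), was close to wildtype mouse 1 at 16.39. The 3' minus 5' signal of the Gapdh control probe sets, a measure of RNA length, was 3.46 and 3.24, against 3.32 to 3.70. For the Actb control probe sets it was 3.10 and 3.28, against 2.96 to 3.65. With the acinar average as a covariate the score difference was -0.02, and 18 of 32 members were lower, beside 45.9% of all probe sets. With the stromal average it was -0.08, with 18 lower beside 39.7%, and with the lymphocyte average -0.07, with 22 lower beside 46.2%. Whether cell content or RNA length plays a part in the score was not tested.

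Genes around the listed ones were read from lists of the same pathway. Of 25 listed upstream kinases and transcription factors, old and new symbols both counted, 17 were measured, with 7 lower, 10 higher, 0 called and a median difference of 0.02. The 3 genes with the smallest p are named from each of the first 2 lists. Rps6ka5, a kinase that phosphorylates histone H3 and CREB at induced genes, stood at 0.29 (SE 0.127), Map2k2 at 0.21 (SE 0.152) and Mrtfb, a coactivator of serum response factor, at 0.13 (SE 0.107). Serum response factor itself, Srf, stood at -0.23 (SE 0.219), named here after its value was seen. Of 37 listed further induced genes 34 were measured, with 26 lower, 8 higher, 0 called and a median of -0.13. Over all probe sets 43.6% were lower, with a median of 0.02. Klf2 stood at -0.96 (SE 0.216, limma adjusted p = 0.9999), Klf4 at -0.69 (SE 0.221) and Id1, a target of BMP signalling, at -0.68 (SE 0.259). The Klf2 values did not overlap between genotypes, as was so for 0.700% of all probe sets. Klf2 and Klf4 are also made by endothelial cells, and 7 of 8 measured endothelial markers were lower in the heterozygous mean, from 7.30 to 8.01 per mouse against 7.83 to 8.35. The part of those cells in these values was not tested. The average over the further induced genes was lowest in heterozygous mouse 5 (8.41) and wildtype mouse 1 (8.44) and highest in wildtype mouse 3 (9.06), the mice at the ends of the activation score. Of 5 heat shock genes 3 were lower and 2 higher, and their average was lowest in wildtype mouse 1 (10.46) and highest in wildtype mouse 3 (11.77).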

How the data were processed

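Total RNA (100 ng) was amplified over 2 cycles to biotinylated cRNA and hybridised to 1 Affymetrix mouse array per mouse, per the labels' protocols. The deposited values are log2 expression per probe set made by the authors with GCRMA, per the submitters' processing notes, its version not given in the sources used here. GCRMA adjusts background, makes arrays alike and pulls dim probe sets to a common low value. The number of arrays limits the precision. Groups came from sample titles. Platform annotation named 34958 probe sets by 1 symbol, and 932 with several were not named. After leaving out 64 control probe sets, 18567 above 4 on at least 5 arrays were fitted in R 4.3.3 with limma 3.58.1 (lmFit, then eBayes), two-sided, adjusted by Benjamini-Hochberg at 0.05. The fit and the permutation test were tested on simulated data. Single members were also compared by exact two-sided permutation over 252 assignments. Named genes were the 2 smallest p per family, the 5 highest residual SDs, and Fos, Jun, Egr1, Nr4a1 and Dusp1. Members, lists and rules were chosen with earlier results of these data known. Alternatives covered filter, normalization, variance prior, array weights, covariates, replicate block and left-out mice. Figures used matplotlib 3.10.9.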

Additional observations from a re-analysis of the deposited data

Results flagged for a closer look

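In 66 groups of 5 mice (32 genes and the score, in each genotype), 6 values stood apart by Dixon's criterion, where chance flags about 1 in 20 groups. Fos stood at 15.18 in wildtype mouse 1 (next 15.45) and at 14.98 in heterozygous mouse 5 (next 15.34). Wildtype mouse 1 was also apart for Fosl2 at 6.65 (next 7.87) and for Dusp5 at 5.03 (next 5.63). Heterozygous mouse 2 was apart at the upper end for Egr3 at 7.98 (next 7.52) and for Per1 at 7.60 (next 6.84). These genes share arrays, so the flags are not independent.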

How the results depend on the processing

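No member and no probe set was called under any of the 23 alternatives, the lowest adjusted p being 0.217 (limma, without heterozygous replicate 4). The count of members with a lower heterozygous mean ran from 15 to 26 of 32, both ends when 1 mouse was left out, and the score difference from -0.20 to 0.0048, positive without wildtype replicate 3 or heterozygous replicate 5. Non-overlapping members numbered 0 to 2 when single mice were left out, beside 1.08% to 2.03% of all probe sets, and 2 (Fos and Dusp1) beside 2.02% without wildtype replicate 1 and heterozygous replicate 5, an exclusion chosen after seeing the data. Members correlated with Fos at an unadjusted p under 0.05 numbered 2 in place of 13 without the 2 mice farthest from the median Fos value. Of 396 single-gene values 20 changed sign, over 7 of 18 genes, none of them called. Egr3 stood at -0.0089 after quantile normalization, -0.013 after median centring, -0.089 with the lymphocyte covariate, -0.097 without heterozygous replicates 2 and 5, -0.33 without wildtype replicate 1 and heterozygous replicate 5, and from -0.36 to 0.23 leaving out 1 mouse. Egr1 stood at 0.019 with array weights, 0.0077 with the acinar covariate, 0.024 without heterozygous replicates 2 and 5, and from -0.18 to 0.080 leaving out 1 mouse. With the stromal covariate Ier5 stood at 0.0070 and Npas4 at -0.39. Leaving out 1 mouse gave -0.046 to 0.36 for Egr2, -0.19 to 0.52 for Npas4, -0.47 to 0.0058 for Sik1 and -0.29 to 0.025 for Jun. Same-numbered mice correlated at -0.28 to 0.11 in their deviations, and only for replicate 5 was the same number the best match. These values do not show a pairing by number and cannot exclude one. With the replicate block the score difference was -0.075, 21 members were lower and 0 were called. The causes were not tested.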

Other observations

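Among 10506 other measured genes, those whose level most resembled the activation score over the 10 arrays, after centring within genotype, were the chemokine gene Ccl11 (r = 0.94), Nudt4 (0.94), Adap2 (0.93), Otub2 (0.92), the adenosine kinase gene Adk (0.92), Mbd1 (0.91), the EGF receptor inhibitor gene Errfi1 (0.89) and the matrix protease gene Adamts1 (0.89). This is a description without a test. Their genotype differences ranged from -0.52 for Adamts1 to 0.41 for Adap2.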
